A study of Homo sapiens with 4 samples.

Results

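The 45 genes described here are interferon-stimulated genes, chosen by symbol as genes that type I interferon is known to induce. Each symbol matched 1 of the 60671 Ensembl gene identifiers measured, and all 45 are annotated as protein-coding. RNA-seq covered 2 established human prostate carcinoma lines. 22RV1 was derived from a xenograft and PC3 from a bone metastasis. Both had been infected with a lentivirus carrying an shRNA that targets DDX52, a DEAD-box RNA helicase (shDDX52), or a non-target control shRNA (shCON). There was 1 library for each of the 4 conditions, 1 shRNA sequence against DDX52, and no library of uninfected cells, so the level set by the cell line and any effect of carrying a lentiviral shRNA vector cannot be told apart. With 1 library per condition no difference below has a replicate check, no p-value was computed, and all fold changes compare libraries.

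Abundance was deposited as TPM, a share of all transcripts corrected for transcript length, so levels of different genes can be set side by side. TPM keeps no read number, and the depth behind a value is unknown. In 22RV1, DDX52 was at 4.88 TPM with shCON against 1.2 TPM with shDDX52, and in PC3 at 9.2 against 2.07 TPM. FOLH1, which encodes prostate-specific membrane antigen, was at 67.9 and 77.4 TPM in 22RV1 and at 0.05 and 0.26 TPM in PC3, whereas CD44, a surface glycoprotein of PC3 cells, was at 17.1 and 7.01 TPM in 22RV1 and 571 and 664 TPM in PC3. FOLH1 and CD44 thus matched the cell line labels, and DDX52 matched the shRNA labels. Of 9 prostate luminal markers, 3 were listed at 0 in each PC3 library and none in 22RV1. EPCAM and KRT18, also on that list, went the other way, at 24.0 and 488 TPM in 22RV1 shCON against 287 and 1200 TPM in PC3 shCON. The 9 summed to 1591 TPM in 22RV1 shCON and 2249 TPM in PC3 shCON. Among 5 mesenchymal and PC3 markers, TWIST1 was lower in PC3 shCON, at 0.59 TPM against 8.02 TPM in 22RV1 shCON. Pairs of values for a cell line are given with shCON first.

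Interferons are secreted when a cell senses foreign nucleic acid. Type I interferon binds the receptor made of IFNAR1 and IFNAR2 and activates the kinases JAK1 and TYK2, which phosphorylate STAT proteins, STAT2 among them. With IRF9 these form a complex, ISGF3, that binds the interferon-stimulated response element (ISRE) in the promoters of its target genes. Type II interferon acts through STAT dimers that bind the gamma-activated site (GAS). Many target genes encode proteins that recognise or degrade viral RNA or block virus entry and release. Many of them are also transcribed at a low level without added interferon, and double-stranded RNA or vector DNA in transduced cells is a known trigger of the pathway.

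The promoter windows of the members were read from RefSeq (GRCh38.p14), from 250 bases before to 50 bases after the transcript start. A window was found for 37 of the 45 members. The ISRE core was searched as GAAANNGAAA, which reads TTTCNNTTTC on the other strand, and the GAS core as TTCNNNGAA, which reads the same on both strands. The stretches below are 30 bases each, 5′ to 3′ on the strand of the gene, with the matched bases in capitals. The first 7 show ISRE cores in the members with the highest levels, in those furthest down in 22RV1 with shDDX52, and in members that differed between the cell lines. The last shows a GAS core in a member without an ISRE core in its window.
ISG15 (chr1:1013377-1013406, plus strand): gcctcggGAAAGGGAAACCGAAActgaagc
IFITM3 (chr11:320885-320914, minus strand): agGAAAAGGAAActgttgaGAAACCGAAAc
LGALS3BP (chr17:78979962-78979991, minus strand): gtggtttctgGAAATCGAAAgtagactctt
ISG20 (chr15:88638937-88638966, plus strand): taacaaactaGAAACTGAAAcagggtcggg
BST2 (chr19:17405738-17405767, minus strand): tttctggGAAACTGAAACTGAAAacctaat
IFIT1 (chr10:89392503-89392532, plus strand): ttagTTTCACTTTCcccTTTCGGTTTCcct
IFI6 (chr1:27672329-27672358, minus strand): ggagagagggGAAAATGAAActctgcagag
IRF1 (chr5:132490879-132490908, minus strand): aacagcctgatTTCCCCGAAatgacggcac
Each stretch lies upstream of the RefSeq start. Those of ISG15, IFIT1, IFI6 and IRF1 overlap no exon of the GENCODE 29 basic annotation. Those of ISG20, IFITM3 and LGALS3BP overlap an exon of the gene itself in that annotation, and that of BST2 overlaps an exon of BISPR, a lincRNA gene on the opposite strand. ISG15 and BST2 carried a pair of ISRE cores that share bases, which gives a run of 3 GAAA repeats.

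An ISRE core was present in 25 of the 37 members with a window (67.6%), against 4.38% of the 27305 genes with a window in the same table. A GAS core was present in 12 of the 37 (32.4%), against 9.38% of all genes. Both cores were found in 7 members, of which 5 (BST2, EPSTI1, IFI27, IFITM1 and MX1) had cores that overlapped each other. Only a GAS core was found in IFI35, IRF1, IRF9, OAS1 and SP110, and neither in CMPK2, HERC6, SAMD9L, STAT2, TRIM25, UBE2L6 and XAF1. These matches describe letters in a window of 1 length and do not show binding of a factor.

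**Figure D1:**
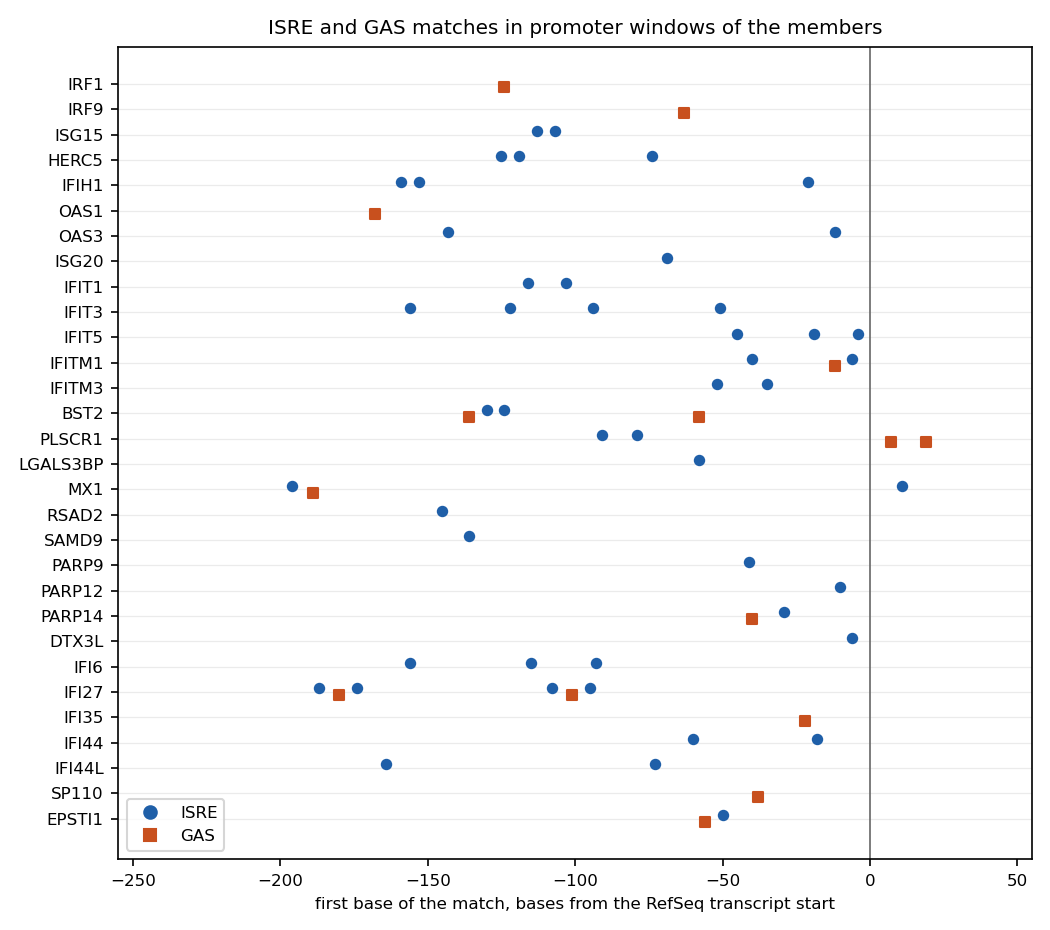
Position of ISRE (circles) and GAS (squares) cores in the promoter windows of the 30 members with a match, with the distance in bases of the first base of the match from the RefSeq transcript start on the x axis and 1 row per gene. Most matches lie before the start, for example at 113 and 107 bases before it in ISG15 and 69 bases before it in ISG20.

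The members differed by several orders of magnitude in level and were higher in PC3 than in 22RV1. Their summed level was 776 and 736 TPM in the 22RV1 libraries and 2053 and 2072 TPM in the PC3 libraries. Of the 45 members, 24 and 21 reached 1 TPM in 22RV1 and 35 and 34 in PC3, while 12 and 14 were listed at 0 in 22RV1 and 3 in each PC3 library. ISG15 and the 3 IFITM genes together held 83.2% and 86.6% of the summed level in 22RV1 and 66.3% and 68.8% in PC3. With LGALS3BP added the share was 81.9% and 81.8% in the PC3 libraries. Across the 45 members, Spearman's rho between levels was 0.985 for the pair of 22RV1 libraries, 0.986 for the pair of PC3 libraries and 0.80 between the control libraries. These are descriptions across genes, which are not independent replicates.

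**Figure D2:**
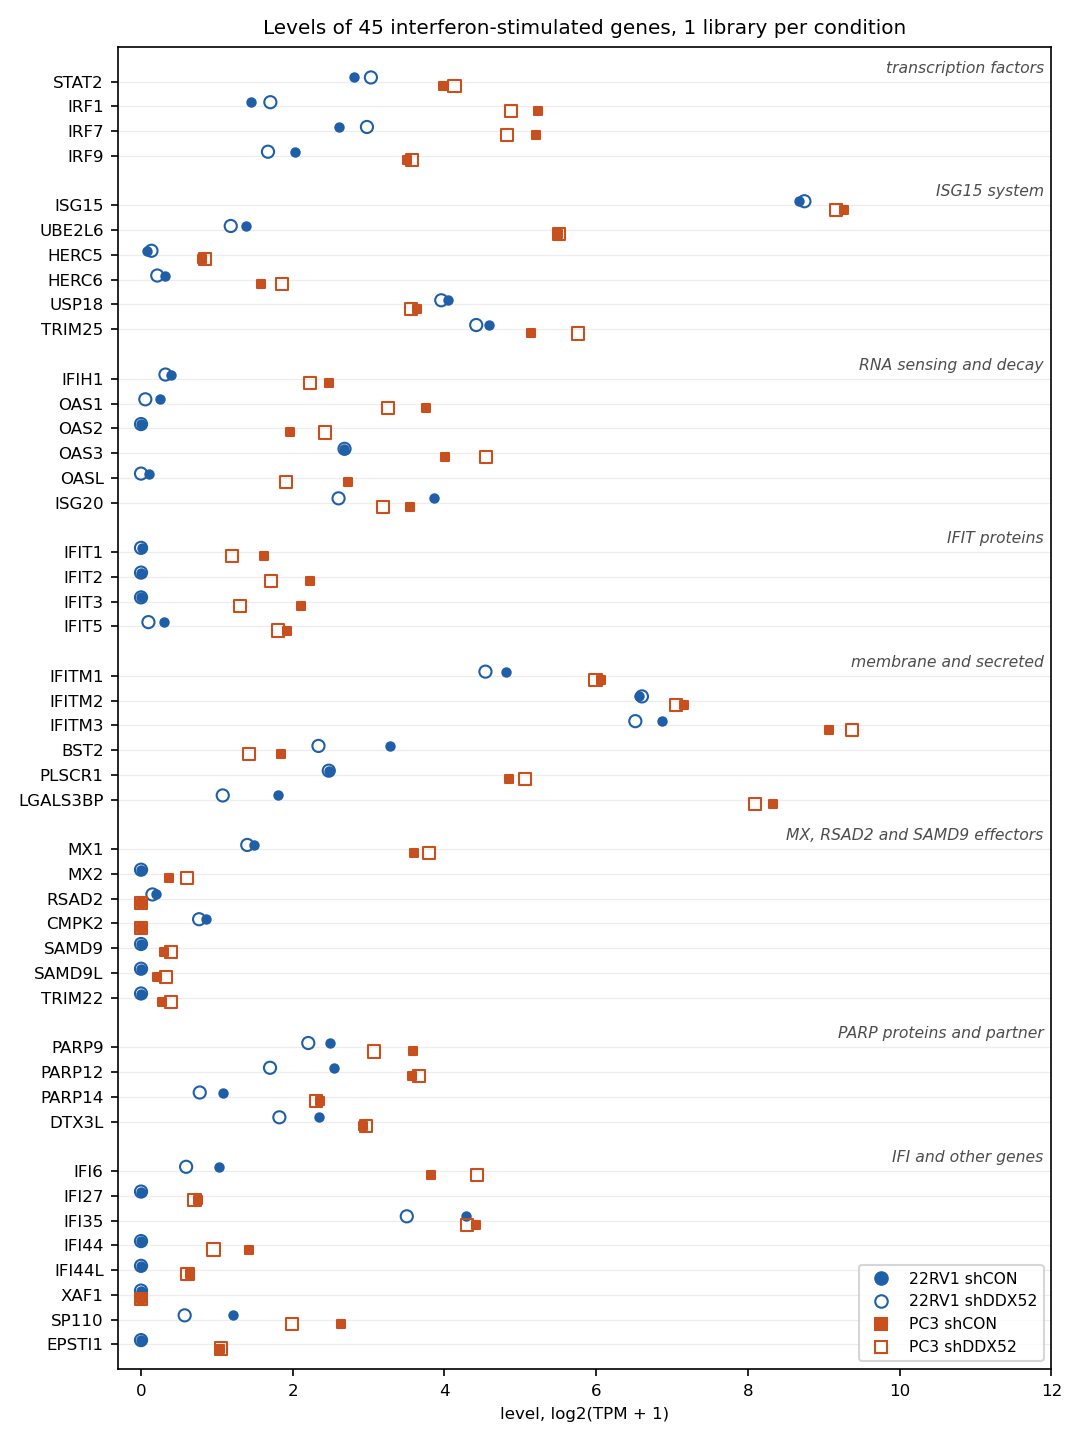
Level of each of the 45 members as log2(TPM + 1) on the x axis, grouped by role, with circles for 22RV1, squares for PC3, filled symbols for shCON and open symbols for shDDX52 (1 library each). Symbols of a cell line mostly lie close together, while the PC3 symbols lie to the right of the 22RV1 symbols for 39 members with either shRNA, and for ISG20 with shDDX52.

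Among the transcription factors, STAT2, a subunit of ISGF3, was at 6.02 and 7.17 TPM in 22RV1 and at 14.8 and 16.5 TPM in PC3. IRF9, the DNA-binding subunit of the complex, was at 3.08 and 2.19 TPM in 22RV1 and 10.4 and 10.9 TPM in PC3. Both subunits were thus detected in both lines. IRF1, an activator that responds to type II interferon, was at 1.74 and 2.26 TPM in 22RV1 and 36.6 and 28.5 TPM in PC3, a 21.1-fold difference between the control libraries. IRF7, which drives transcription of type I interferon genes, was at 5.13 and 6.88 TPM in 22RV1 and 35.8 and 27.4 TPM in PC3. All 4 factors were higher in both PC3 libraries than in either 22RV1 library. With shDDX52, IRF1 and IRF7 were higher in 22RV1 (log2 ratios of 0.25 and 0.36) and lower in PC3 (−0.35 and −0.37).

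ISG15, a ubiquitin-like protein that is joined to other proteins, had the highest level of the members in 3 of the 4 libraries, with 409 and 428 TPM in 22RV1 and 617 and 570.0 TPM in PC3. The values in the 2 lines were 1.51-fold apart in the controls, a smaller difference than for most members. The genes that act on ISG15 did not share its pattern. UBE2L6, the conjugating enzyme of the ISG15 pathway, was at 1.61 and 1.27 TPM in 22RV1 and 44.1 and 44.5 TPM in PC3, or 27.4-fold higher in PC3 shCON. HERC5, the main ISG15 ligase, stayed under 1 TPM in all 4 libraries, with 0.06 and 0.10 TPM in 22RV1 and 0.75 and 0.80 TPM in PC3. In 22RV1 the high ISG15 level was therefore measured beside low levels of its conjugating enzyme and ligase. HERC6, a related ligase gene, was at 0.25 and 0.16 TPM in 22RV1 and 2 and 2.62 TPM in PC3. TRIM25, a ubiquitin ligase of the RIG-I pathway, was at 23.0 and 20.4 TPM in 22RV1 and 34.3 and 53.3 TPM in PC3, and its log2 ratio of 0.62 was the highest of the members with shDDX52 in PC3. USP18, which removes ISG15 from proteins and restrains the type I receptor, was one of the few members higher in 22RV1, with 15.5 and 14.5 TPM against 11.5 and 10.8 TPM in PC3. USP41, a near-identical copy of USP18, was at 3.80 and 8.57 TPM in 22RV1 and at 0 and 5.23 TPM in PC3, so the split of shared reads between these genes is uncertain.

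IFIH1 and the OAS family genes differed more between the lines than between the shRNAs, while ISG20 did not. IFIH1, which encodes the double-stranded RNA sensor MDA5, was at 0.31 and 0.25 TPM in 22RV1 and 4.58 and 3.67 TPM in PC3. The OAS enzymes make 2′-5′ oligoadenylate, which triggers the decay of RNA. OAS3 was the OAS gene detected best in 22RV1, at 5.40 and 5.42 TPM, and was at 15.2 and 22.3 TPM in PC3. OAS1 was at 0.19 and 0.04 TPM in 22RV1 and 12.5 and 8.53 TPM in PC3. OAS2 was listed at 0 in both 22RV1 libraries and was at 2.89 and 4.39 TPM in PC3. These 3 genes are neighbours on chromosome 12, with gaps of 5129 and 5145 bases, and in PC3 they did not move alike, since the log2 ratios with shDDX52 were −0.51 for OAS1, 0.47 for OAS2 and 0.53 for OAS3. OASL, an OAS relative without the enzymatic activity, was at 0.08 TPM in 22RV1 shCON, listed at 0 in 22RV1 shDDX52, and at 5.65 and 2.76 TPM in PC3, where its log2 ratio of −0.82 was the lowest of the members. ISG20 (ENSG00000172183), an RNA exonuclease, went against the group, with 13.6 and 5.08 TPM in 22RV1 and 10.7 and 8.12 TPM in PC3, so the 22RV1 control had the highest level. It was the member furthest down with shDDX52 in 22RV1, at 37.5% of the control. Its log2 ratios with shDDX52 were −1.26 in 22RV1 and −0.36 in PC3, against −0.31 for PC3 shCON to 22RV1 shCON.

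The IFIT genes encode proteins that bind foreign RNA ends and lie side by side on chromosome 10. Together they summed to 0.24 and 0.07 TPM in 22RV1 and to 11.9 and 7.54 TPM in PC3. IFIT2 and IFIT3 were listed at 0 in both 22RV1 libraries. In PC3 they were at 3.67 and 2.28 TPM (IFIT2) and at 3.32 and 1.47 TPM (IFIT3). IFIT1 was at 0.01 TPM in 22RV1 shCON, listed at 0 in 22RV1 shDDX52, and at 2.08 and 1.30 TPM in PC3. IFIT5 was at 0.23 and 0.07 TPM in 22RV1 and 2.78 and 2.49 TPM in PC3. All 4 IFIT genes were lower with shDDX52 in PC3, with log2 ratios from −0.81 for IFIT3 to −0.12 for IFIT5, none of which reached 2-fold at a pseudocount of 1. Among all genes with at least 1 TPM in 1 or both PC3 libraries, 53.5% were lower.

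Membrane and secreted products held most of the summed level in PC3. The IFITM proteins block the fusion of virus with cell membranes, and their genes adjoin on chromosome 11. IFITM3 (ENSG00000142089) was at 115 and 90.5 TPM in 22RV1 and 535 and 661 TPM in PC3, a 4.64-fold difference between the control libraries, and in PC3 shDDX52 it exceeded ISG15. IFITM2 was at 93.9 and 96.2 TPM in 22RV1 and 142 and 131 TPM in PC3, and IFITM1 at 27.1 and 22.3 TPM in 22RV1 and 66.2 and 62.6 TPM in PC3. The coding sequences of the 3 IFITM genes are alike, so reads may have been split between them, and the IFITM1 annotation lies within that of IFITM2. LGALS3BP (ENSG00000108679), a secreted glycoprotein that binds galectins, was at 2.49 and 1.11 TPM in 22RV1 and 321 and 271 TPM in PC3. Its 129-fold difference between the control libraries was the largest among the members measured above 1 TPM in both. PLSCR1, a phospholipid scramblase, was at 4.58 and 4.56 TPM in 22RV1 and 27.8 and 32.3 TPM in PC3. BST2 (ENSG00000130303), tetherin, which holds budding virus at the cell surface, was the only member at least 2-fold lower in PC3 shCON than in 22RV1 shCON. Its level was 8.75 and 4.06 TPM in 22RV1 and 2.58 and 1.69 TPM in PC3, or 46.4% of the control with shDDX52 in 22RV1 and 65.5% in PC3.

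Several classical antiviral effectors were hardly detected in any library. MX1, a dynamin-like GTPase that traps viral nucleocapsids, was the exception, with 1.80 and 1.64 TPM in 22RV1 and 11.1 and 12.8 TPM in PC3. Its neighbour MX2 was listed at 0 in 22RV1 and was at 0.29 and 0.52 TPM in PC3. RSAD2, which encodes viperin, and CMPK2, a mitochondrial nucleotide kinase gene that overlaps it by annotation on the opposite strand, were the only members listed at 0 in both PC3 libraries but detected in 22RV1, at 0.15 and 0.11 TPM for RSAD2 and 0.81 and 0.70 TPM for CMPK2. SAMD9, SAMD9L and TRIM22 were listed at 0 in 22RV1 and stayed at or under 0.32 TPM in PC3. XAF1, a pro-apoptotic gene, was listed at 0 in all 4 libraries.

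PARP9, PARP14 and PARP12 encode ADP-ribosyltransferase family members, and DTX3L is the ubiquitin ligase partner of PARP9. All 4 were lower with shDDX52 in 22RV1, where 58.8% of all genes with at least 1 TPM in 1 or both libraries were lower. PARP14 reached 1 TPM there only with shCON and so had to be lower. PARP12 was at 4.85 and 2.25 TPM in 22RV1 (46.4% of the control with shDDX52) and at 10.8 and 11.7 TPM in PC3. DTX3L was at 4.09 and 2.54 TPM in 22RV1 and 6.63 and 6.81 TPM in PC3. PARP9, whose annotation overlaps that of DTX3L on the opposite strand, was at 4.60 and 3.61 TPM in 22RV1 and 11.1 and 7.40 TPM in PC3. PARP14 was at 1.11 and 0.71 TPM in 22RV1 and 4.12 and 3.94 TPM in PC3. Their summed level was 14.7 and 9.11 TPM in 22RV1 and 32.6 and 29.9 TPM in PC3.

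The remaining members are less well understood. IFI35 was the only one of them above 10 TPM in both lines, at 18.5 and 10.3 TPM in 22RV1 and 20.4 and 18.7 TPM in PC3. IFI6 (ENSG00000126709), a small membrane protein gene, was at 1.03 and 0.51 TPM in 22RV1 and 13.1 and 20.5 TPM in PC3, so it was lower with shDDX52 in 22RV1 and higher in PC3. SP110, a nuclear body component, was lower with shDDX52 in both lines, with 1.31 and 0.49 TPM in 22RV1 against 5.19 and 2.97 TPM in PC3. IFI6 and SP110 reached 1 TPM in 22RV1 only with shCON. IFI44 and EPSTI1 were listed at 0 in both 22RV1 libraries and were at 1.69 and 0.94 TPM (IFI44) and 1.05 and 1.08 TPM (EPSTI1) in PC3. IFI27 and IFI44L, usually among the genes most responsive to type I interferon, were listed at 0 in 22RV1 and at or under 0.69 TPM in PC3.

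The first comparison asked how the cell lines differed when both carried shCON. PC3 shCON was higher for 39 of the 45 members, and 5 (ISG20, USP18, RSAD2, BST2 and CMPK2) were lower. Ratios were taken as log2((TPM + 1) / (TPM + 1)), which understates the difference of low genes, for genes that reached 1 TPM in 1 or both of the libraries compared, called measured here, and a member was counted when the ratio reached 2-fold. Of the 45 members, 35 were measured, and 11 of these reached 1 TPM only in PC3 shCON and so had to be higher there. At least 2-fold higher in PC3 were 27 of the 35 (77.1%), against 19.9% of the 15727 genes measured, and 1 was at least 2-fold lower, against 21.3%. Their median log2 ratio was 1.43, against −0.067 over all genes measured. Of the 27, 5 were listed at 0 in 22RV1 shCON, and without genes listed at 0 the median was 1.38. Among the 24 members with at least 1 TPM in both control libraries, a limit added after the data were seen, 16 were at least 2-fold higher and 1 lower in PC3, against 14.2% and 15.0% of all such genes, and the median was 1.27 against −0.052. At least 4-fold higher were 13 of the 35 members, against 1183 of the 15727 genes measured. The 13 were led by LGALS3BP (6.53), UBE2L6 (4.11), IRF1 (3.78), OAS1 (3.51) and IFI6 (2.80). In the shDDX52 libraries the same 39 members were higher in PC3, and so was ISG20.

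**Figure D3:**
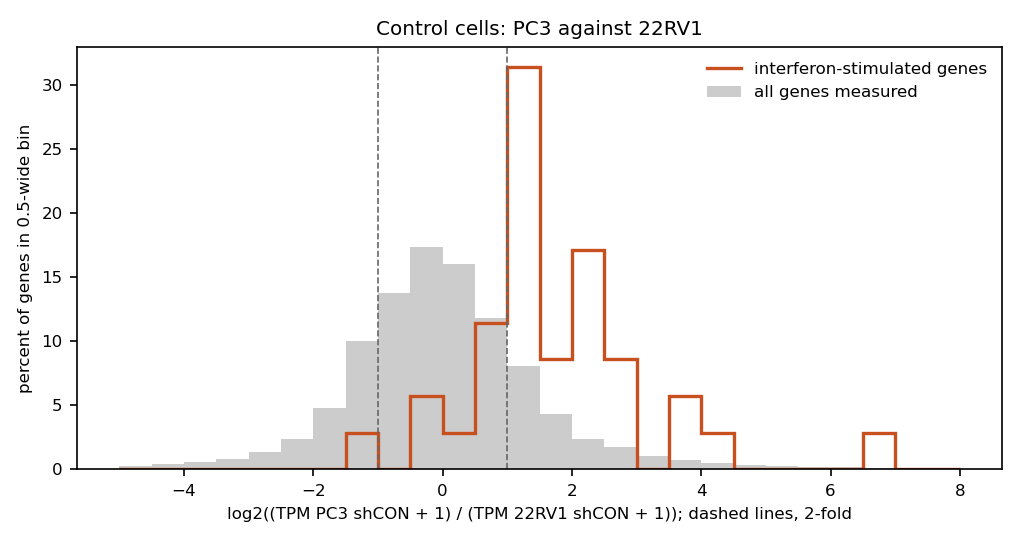
Share of genes, in percent, in bins of 0.5 of the log2 ratio of PC3 shCON to 22RV1 shCON, for the 35 measured members (orange line) and all 15727 genes measured (grey bars); dashed lines mark 2-fold. The members peak between 1 and 1.5, with a median of 1.43, while all genes centre near 0.

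Markers of other cell types were low and are given as measured. The 11 leukocyte markers summed to 13.2 and 7.64 TPM in 22RV1 and 46.8 and 37.6 TPM in PC3, with 5, 6, 5 and 7 of them listed at 0. Except in 22RV1 shDDX52, most of that sum was CD68, a lysosomal glycoprotein gene, at 8.82 and 2.40 TPM in 22RV1 and 38.4 and 35.6 TPM in PC3. In 22RV1 shDDX52 the marker IL3RA was higher than CD68, at 2.98 TPM. PTPRC, which encodes the leukocyte antigen CD45, was listed at 0 in both 22RV1 libraries and was at 0.16 and 0.39 TPM in PC3, and MS4A1, CLEC4C and LILRA4 were listed at 0 in all 4 libraries. The 3 endothelial markers summed to 0.01 and 0.02 TPM in 22RV1 and 5.68 and 3.08 TPM in PC3, and the 4 fibroblast markers to 5.22 and 5.57 TPM in 22RV1 and 8.87 and 8.53 TPM in PC3. The part of these genes in the difference between the lines was not tested.

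The second comparison asked what shDDX52 changed in 22RV1. Of the 45 members, 24 were measured, and 18 of these were lower and 6 higher with shDDX52. The share of lower members was 75.0%, against 58.8% of the 14438 genes measured, and the median log2 ratio was −0.28, against −0.076 over all genes. ISG20 was the only member lower by 2-fold or more (log2 ratio of −1.26) and no member was higher by as much, while 2.86% of all genes measured were at least 2-fold lower and 2.24% were 2-fold or more higher. IFI6, SP110 and PARP14 reached 1 TPM only with shCON and so had to be lower. Among the other 21 members 15 were lower, with a median of −0.20 against −0.071 over all genes that reached 1 TPM in both libraries. With a filter of 5 TPM, 7 of 12 members were lower, against 59.3% of all genes, and the median was −0.13 against −0.070, so the larger share of lower members was not seen among the more abundant ones. A count of 1 in 24 is near this background. BST2 lay just outside the 2-fold line, at −0.95, followed by PARP12 (−0.85), IFI35 (−0.78), LGALS3BP (−0.73) and SP110 (−0.63). The 6 higher members were IRF7 (0.36), IRF1 (0.25), STAT2 (0.22), ISG15 (0.06), IFITM2 (0.03) and OAS3, which differed by under 0.01. The count at 2-fold depends on the pseudocount of 1, since BST2, PARP12, LGALS3BP and SP110 also passed 2-fold with a pseudocount of 0.1. With that pseudocount 5.44% of all genes measured were at least 2-fold lower. Of the 4 transcription factors 3 were on the higher side.

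The third comparison asked the same in PC3. Of the 45 members, 35 were measured, 21 lower and 14 higher with shDDX52. The share of lower members was 60.0%, against 53.5% of the 14262 genes measured, and the median log2 ratio was −0.11, against −0.036 over all genes. With the pseudocount of 1 no member reached 2-fold in either direction, while 3.44% of all genes measured were 2-fold or more lower and 2.86% were 2-fold or more higher. With a pseudocount of 0.1 IFIT3 and OASL did so on the lower side, beside 5.94% of all genes. IFI44 reached 1 TPM only with shCON, and among the other 34 members 20 were lower, with a median of −0.096 against −0.035. The lowest log2 ratios were those of OASL (−0.82), IFIT3 (−0.81), SP110 (−0.64), PARP9 (−0.52), IFIT2 (−0.51) and OAS1 (−0.51), and the highest those of TRIM25 (0.62), IFI6 (0.61), OAS3 (0.53), OAS2 (0.47) and IFITM3 (0.30). The direction of the median depended on the scaling. When TPM was rescaled to nuclear protein-coding genes, the median over all genes in PC3 was 0.087 and that of the members was 0.016, so the members' median stayed below that of all genes while its sign turned.

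**Figure D4:**
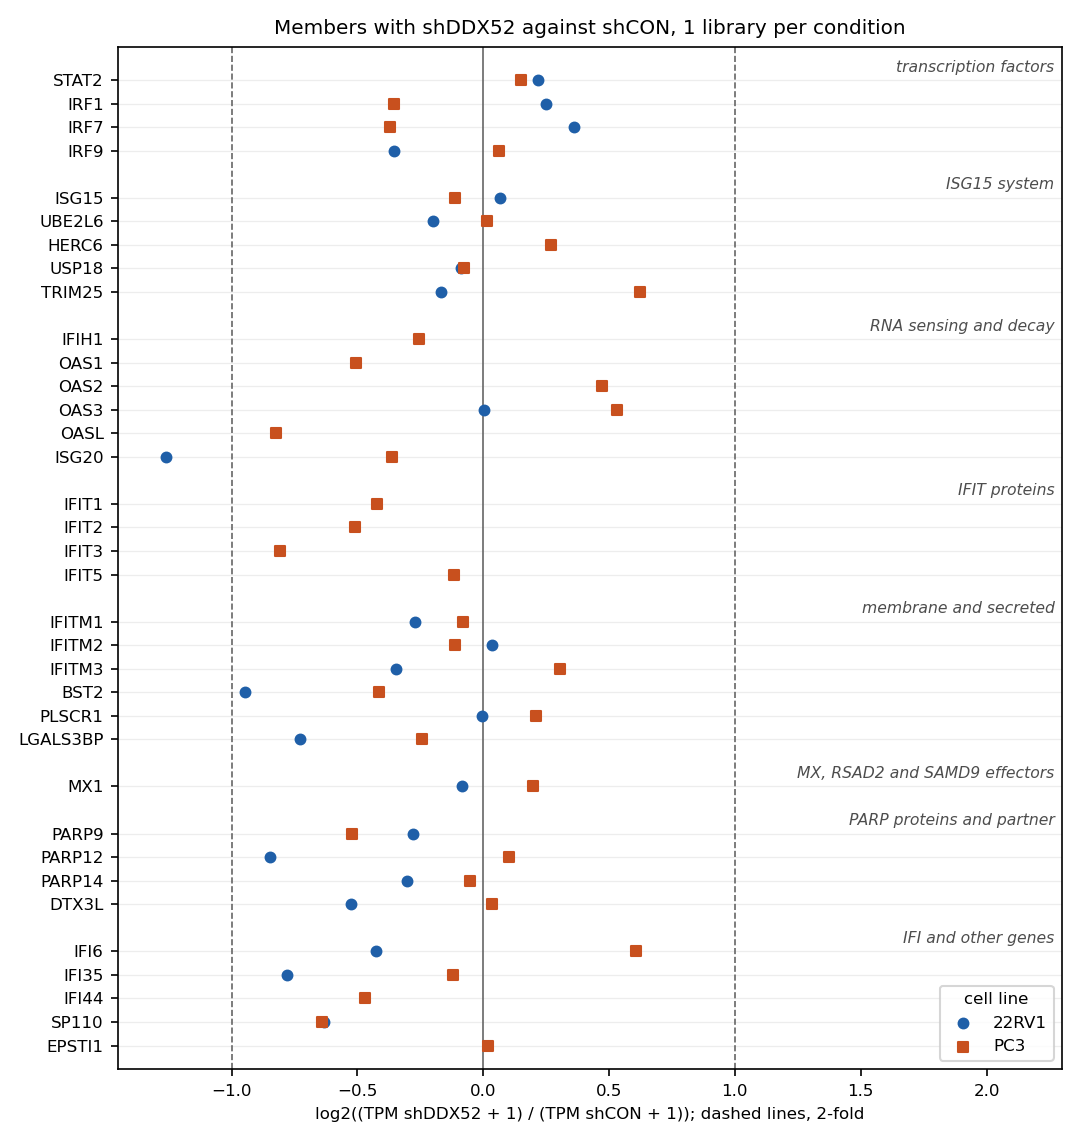
Log2((TPM shDDX52 + 1) / (TPM shCON + 1)) of each member measured in a cell line (circles, 24 members in 22RV1; squares, 35 members in PC3), grouped by role, with dashed lines at 2-fold. ISG20 in 22RV1, at −1.26, is the only symbol beyond a dashed line.

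Direction was compared between the lines for members measured in both. Of the 24 members measured in both, 9 were lower in both, 2 (STAT2 and OAS3) were higher in both, 9 were lower in 22RV1 and higher in PC3, and 4 (IRF1, IRF7, ISG15 and IFITM2) were higher in 22RV1 and lower in PC3. Opposite directions were thus seen for 54.2% of these members, against 48.8% of the 12175 genes measured in both lines, and 37.5% were lower in both, against 32.5%. ISG20, BST2, LGALS3BP and PARP9 were among those lower in both. IFI6, SP110 and PARP14 reached 1 TPM in 22RV1 only with shCON, so their direction in 22RV1 was fixed by the filter. IFI6 is counted among the opposite directions, and SP110 and PARP14 among those lower in both. The difference between the lines in the response to shDDX52 was not tested.

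Members with an ISRE core in their window, such as the stretches of ISG20, BST2 and LGALS3BP above, had a median log2 ratio with shDDX52 of −0.32 in 22RV1 (14 measured, 12 lower) and −0.096 in PC3 (20 measured, 12 lower). Those with a window but no ISRE core had medians of −0.20 in 22RV1 (7 measured, 5 lower) and 0.015 in PC3 (9 measured, 4 lower). Over all genes measured, 58.8% were lower in 22RV1 and 53.5% in PC3. IFI6 and PARP14 (with) and SP110 (without) in 22RV1, and IFI44 (with) in PC3, had to be lower, since they reached 1 TPM only with shCON. Between the control libraries the medians were 1.38 with an ISRE core (16 of 20 at least 2-fold higher in PC3) and 1.42 without (7 of 9), beside 19.9% of all genes. The higher level in PC3 was thus seen with and without this motif. IFIT1, IFIT3, IFIT5, IFI44, IFIH1 and EPSTI1 (with) and OAS1 and HERC6 (without) reached 1 TPM only in PC3 shCON and had to be higher there. These counts are small and are given as a description.

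The rest of the pathway was examined in a list of 73 genes that are not members. Of 10 interferon genes, none reached 1 TPM in any library, 7 were listed at 0 throughout, and the highest value was 0.42 TPM for IFNE in PC3 shCON. The receptor genes were all present. IFNAR1 was at 7.85 and 6.32 TPM in 22RV1 and 16.3 and 15.4 TPM in PC3, and IFNAR2 at 9.52 and 8.89 TPM in 22RV1 and 12.8 and 15.4 TPM in PC3. IFNGR1, a chain of the type II receptor, was at 4.22 and 3.70 TPM in 22RV1 and 18.3 and 10.9 TPM in PC3. All 6 receptor genes were higher in PC3 shCON than in 22RV1 shCON, 2 of them by at least 2-fold, while 47.6% of all genes measured were higher in PC3 shCON and 19.9% by at least 2-fold.

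Among kinases and transcription factors, JAK1 was at 1.01 and 2.45 TPM in 22RV1 and 14.1 and 20.7 TPM in PC3, so the 22RV1 control had the lowest level. TYK2 was at 58.4 and 61.9 TPM in 22RV1 and 83.8 and 65.4 TPM in PC3. STAT3, which acts downstream of interleukin-6, had the opposite pattern to the members, with 21.6 and 15.9 TPM in 22RV1 and 0.02 and 0.09 TPM in PC3. IRF3, the factor that induces interferon beta, was high in both lines, at 164 and 178 TPM in 22RV1 and 128 and 129 TPM in PC3.

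Sensors and inhibitors of the pathway did not all differ in the same direction between the lines. CGAS, the cytosolic DNA sensor, was listed at 0 and at 0.09 TPM in 22RV1 and was at 6.78 and 9.83 TPM in PC3, and STING1, the adaptor that CGAS signals through, was listed at 0 in both 22RV1 libraries and was at 10.7 and 11.4 TPM in PC3. RIGI, which encodes the RNA sensor RIG-I, was at 0.43 and 0.29 TPM in 22RV1 and 2.91 and 2.77 TPM in PC3, whereas MAVS, the adaptor for RIG-I and MDA5, was at 17.1 and 17.5 TPM in 22RV1 and 15.1 and 19.7 TPM in PC3. The inhibitors SOCS1 and SOCS3, themselves induced by cytokines, were at or under 0.31 TPM in 22RV1. In PC3 SOCS3 was at 15.7 TPM in both libraries and SOCS1 at 2.39 and 1.93 TPM. PIAS1, PTPN1 and PTPN6, also inhibitors, were higher in 22RV1 shCON than in PC3 shCON, and so was DHX58, an RNA sensor gene under 1 TPM in all 4 libraries. PTPN6, a phosphatase gene, was at 32.1 and 27.2 TPM in 22RV1 and 13.7 and 14.8 TPM in PC3.

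Over the list of 73 genes, 54 were measured in the control libraries, with a median log2 ratio of 1.06. At least 2-fold higher in PC3 were 28 (51.9%) and at least 2-fold lower 3 (5.56%), beside the 19.9% and 21.3% of all genes. RIGI, CGAS, STING1, IFI16, SOCS1, SOCS3, APOBEC3C, GBP1, GBP2, GBP3, DDX60, DDX60L, NMI, BATF2, SLFN5, SLFN11 and SP100 reached 1 TPM only in PC3 shCON. These genes had to be higher there. All of them except SLFN11 are among the 28, so most of that count was fixed by the filter. Of the 28, 8 were listed at 0 in 22RV1 shCON, and without genes listed at 0 the median was 0.76. That median still holds genes that had to be higher in PC3. With shDDX52, 37 were measured in 22RV1 with a median of −0.045 and none at 2-fold. In PC3, 52 were measured with a median of −0.0097, and 2 (3.85%) were at least 2-fold lower and none higher, which is near the 3.44% of all genes. Both were cytidine deaminase genes of the APOBEC3 family. APOBEC3C was at 622 and 260 TPM in PC3, listed at 0 in 22RV1 shCON and at 0.07 TPM in 22RV1 shDDX52. APOBEC3G was at 17.8 and 4.94 TPM in PC3 and 1.27 and 1.25 TPM in 22RV1. The 2 differences in PC3 were larger than that of any of the 45 members there.

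**Figure D5:**
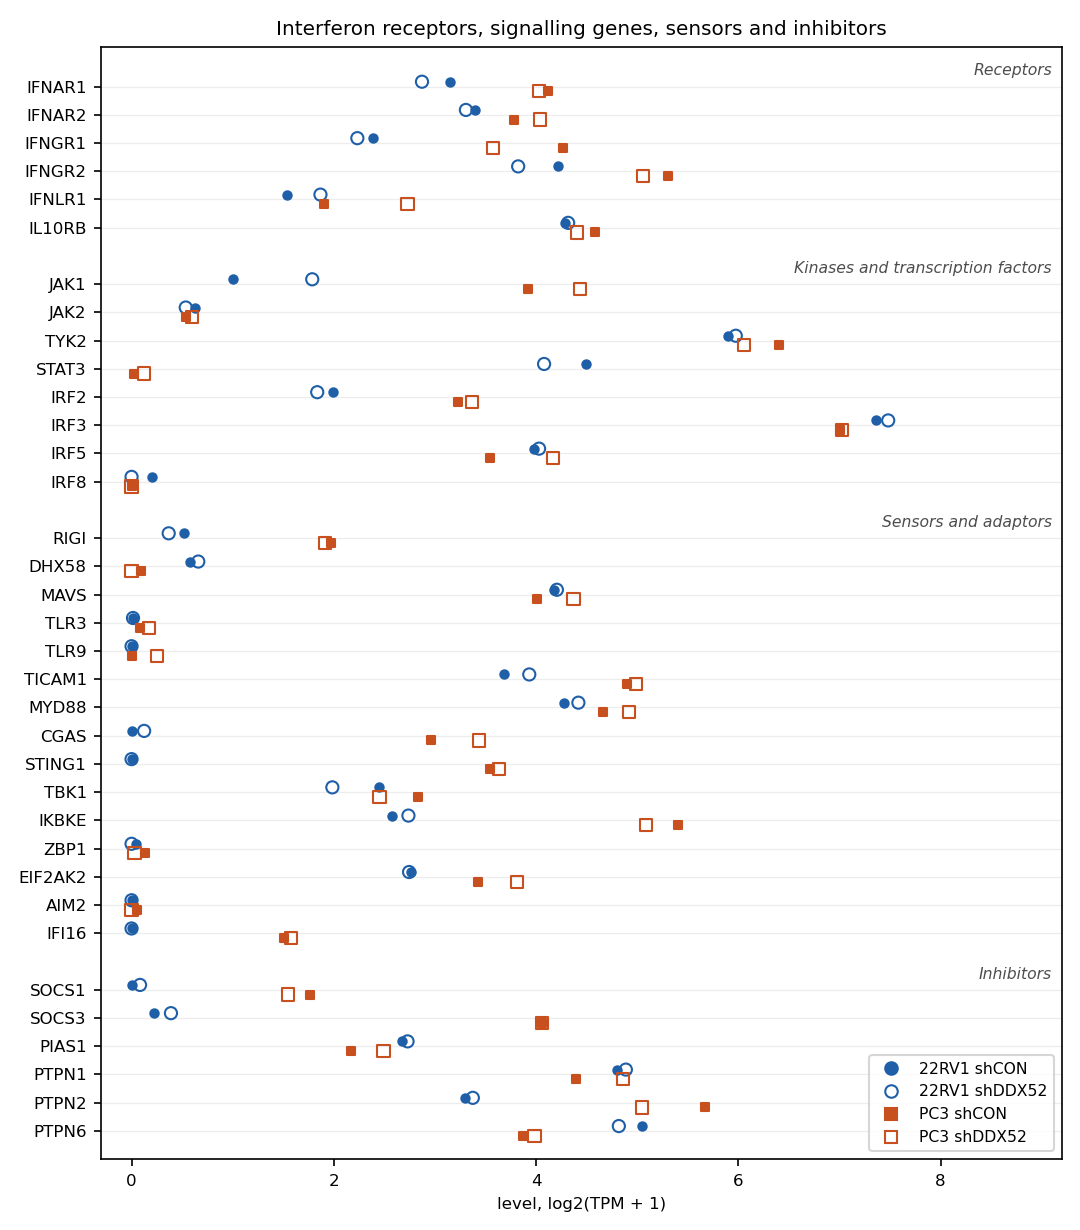
Level as log2(TPM + 1) of 35 receptor, signalling, sensor and inhibitor genes of the interferon pathway in the 4 libraries, with circles for 22RV1, squares for PC3, filled symbols for shCON and open symbols for shDDX52. CGAS, STING1, SOCS1 and SOCS3 lie near 0 in 22RV1 and between 1.5 and 4.1 in PC3, while MAVS and IRF3 lie close together in all 4 libraries.

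Position limits how far members count as separate observations. The 45 members lie on 16 chromosomes, and 22 of them fall in 13 neighbouring pairs under 100 kb apart in GENCODE 29. A gene annotated on the opposite strand overlaps 21 members, and since use of strand in counting is not given in the sources used here, reads of such partners cannot be told apart.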

How the data were processed

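RNA from 22RV1 and PC3 cells carrying shCON or shDDX52 was sequenced, with 1 library per condition (4 in all). The authors deposited TPM per Ensembl gene. Their processing notes list CASAVA, HISAT2 and hg19 without roles, and the quantifier, annotation and strand setting are not given in the sources used here. Of 60671 identifiers, 58453 are in GENCODE 29 (GRCh38), which gave gene types and positions, and no deposited value was tied to a coordinate. TPM keeps no depth, so no interval was computed.

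Ratios were log2((TPM + 1) / (TPM + 1)) for genes reaching 1 TPM in 1 or both libraries, and a 2-fold ratio was counted beside the same count over all genes. All 45 members were named, with pathway genes chosen by role, 2-fold difference or a level in a single line. STAT3, MAVS, IRF3, USP41, CD68, IL3RA, PIAS1, PTPN1, PTPN6, DHX58 and the APOBEC3 genes were singled out after their values were seen. The members and lists were chosen with earlier results of these data known. Promoter windows came from RefSeq. Some genes and sequences are not reported here. The scripts were checked on simulated data. Alternatives covered pseudocount, filter, scaling and membership, and 3 were added after seeing the data. Tools were scipy 1.17.1, pandas 2.3.3, numpy 2.4.6 and Python 3.11.15.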

Additional observations from a re-analysis of the deposited data

Results flagged for a closer look

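IFI6 was the member whose difference with shDDX52 pointed in opposite directions in the cell lines by the widest margin, with a log2 ratio of −0.43 in 22RV1 (1.03 TPM with shCON and 0.51 TPM with shDDX52) and 0.61 in PC3 (13.1 and 20.5 TPM), or 1.03 apart. Each direction rests on 1 library per condition and the 22RV1 values are close to the 1 TPM filter. IFI6 reached 1 TPM in 22RV1 only with shCON, so among measured members it had to be lower there. The difference between the lines was not tested.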

How the results depend on the processing

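Over 10 results, 64 alternatives were computed, of which 47 left the result within its tolerance (0.1 for a median log2 ratio, 1.5-fold for counts and sums). With a pseudocount of 0.1, members at 2-fold with shDDX52 numbered 5 in 22RV1 (BST2, ISG20, LGALS3BP, PARP12 and SP110, all lower), against 1, and 2 in PC3 (IFIT3 and OASL, both lower), against 0. With 0.5 the 22RV1 count was 2 (BST2 and ISG20). The shares of all genes also rose. With 0.1, 5.44% were at least 2-fold lower and 4.01% higher in 22RV1, and 5.94% and 5.14% in PC3. With 0.5, 3.94% were lower and 3.10% higher in 22RV1. SP110 reached 1 TPM in 22RV1 only with shCON and so had to be lower. The 22RV1 median was −0.068 without a filter and −0.13 with a filter of 5 TPM, against −0.28. The PC3 median turned from −0.11 to 0.016 with TPM rescaled to nuclear protein-coding genes, where the median of all genes was 0.087. For PC3 shCON against 22RV1 shCON, 18 members were at 2-fold with a filter of 5 TPM and 17 with at least 1 TPM in both libraries, against 28, since fewer were tested. Of all genes, 20.4% were at least 2-fold higher and 20.3% lower with the first limit, and 14.2% and 15.0% with the second. The members' median in that comparison was 2.56 and 1.74 with pseudocounts of 0.1 and 0.5 and 1.26 without a filter, against 1.43. Both added after seeing the data, it was 1.67 in the shDDX52 libraries and 1.27 with at least 1 TPM in both libraries. Summed levels fell by construction to 367 TPM (22RV1 shCON) and 307 TPM (22RV1 shDDX52) without ISG15, and to 1309 TPM (PC3 shCON) and 1218 TPM (PC3 shDDX52) without the IFITM genes. The cause was not tested for the other changes. Unknown depth leaves the precision of levels under 1 TPM undetermined. A fit over both lines with the cell line as a block, which would leave 1 residual degree of freedom, was not run.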

Other observations

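Several antiviral effector genes outside the member list were also higher in PC3, many of which reached 1 TPM only there. GBP1, an interferon-induced GTPase gene, and NMI, which binds STAT proteins, were listed at 0 in both 22RV1 libraries and were at 6.33 and 5.86 TPM (GBP1) and 11.3 and 10.9 TPM (NMI) in PC3, shCON first. GBP3 was likewise listed at 0 in 22RV1 and was at 7.72 and 4.93 TPM in PC3. SP100, a nuclear body component, was at 0.13 and 0.04 TPM in 22RV1 and 20.9 and 18.6 TPM in PC3. B2M, the light chain of MHC class I, was at 248 and 157 TPM in 22RV1 and 738 and 703 TPM in PC3. Of the 27 effector genes on the pathway list, 25 were measured between the control libraries. At least 2-fold higher in PC3 were 14 and at least 2-fold lower 1, beside 19.9% and 21.3% of all genes. APOBEC3C, GBP1, GBP2, GBP3, DDX60, DDX60L, NMI, BATF2, SLFN5 and SP100 reached 1 TPM only in PC3 shCON and so had to be higher there. Most of the count of 14 was thus fixed by the filter. The others of the 14, TRIM21, APOBEC3G, B2M and LY6E, reached 1 TPM in both control libraries. Of the 14, 4 were listed at 0 in 22RV1 shCON. The median log2 ratio of the 25 was 1.30, and 0.88 without genes listed at 0. Both medians still hold genes that had to be higher in PC3. Not every effector was higher in PC3, since ADAR, the double-stranded RNA editing enzyme, was at 85.7 and 83.1 TPM in 22RV1 and 44.7 and 60.5 TPM in PC3.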
